A study of Mus musculus with 6 samples.

Results

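The cytosolic heat shock genes were followed as 10 genes listed by symbol, out of 24786 gene symbols in the count table, and all 10 had enough counts to be tested. They are the inducible chaperone and co-chaperone genes Hspa1a, Hspa1b, Hsp90aa1, Hsph1, Dnajb1 and Bag3 (6 genes) and, as constitutive genes, Hspa8, Hsp90ab1, Hspa4 and the transcription factor gene Hsf1 (4 genes). RNA had been sequenced from wild-type mouse intestinal organoids, which are epithelial structures cultured from gut stem cells. Organoids dissociated to single cells for 10 min were exposed for 16 h to 100 µM tyramine (3 libraries, titled TA100), an amine made by bacteria from the amino acid tyrosine, or served as controls (3 libraries). Controls are titled DMSO but described in the series' design as receiving control medium, and the labels do not say if DMSO was also present with tyramine. Every culture carried the wild-type genotype and had been through the same dissociation, and the labels name no heat treatment.

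In the cytosol, HSP70 proteins bind exposed stretches of unfolded proteins, J-domain proteins such as DNAJB1 deliver those clients and speed ATP use, and exchange factors such as HSPH1 and BAG3 release them. HSP90 takes over clients at a later stage of folding. When unfolded protein accumulates, the trimeric factor HSF1 binds heat shock elements in the promoters of the inducible genes and raises their transcription, while HSPA8 and HSP90AB1 supply most of the chaperone capacity of unstressed cells. HSF1 activity is controlled mainly on the protein, which exists before stress.

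Of the 10 genes, 8 rose with tyramine and 0 fell, where 12.5% of the 12139 tested genes rose and 13.3% fell (25.8% called in all; Benjamini-Hochberg adjusted p under 0.05 in edgeR's quasi-likelihood fit). At an unadjusted p under 0.05, and by DESeq2 or limma-voom, 0 members fell as well. All 6 inducible genes rose, with a median log2 fold change (tyramine minus control) of 1.60 and a range of 0.70 to 3.36. Of the 4 constitutive genes, Hsp90ab1 and Hspa4 rose and Hspa8 and Hsf1 did not pass the test, with a median of 0.56 and a range of -0.13 to 0.79. The median over all tested genes was 0.0041. In CPM, which are counts scaled to library size, every tyramine library lay above every control library for 9 of the 10 genes, a separation seen for 20.9% of tested genes (23.6% were below in every tyramine library, and 44.5% were apart either way). Hspa8 was the gene whose groups overlapped. The count of rising members was 7 without control replicate 2, without control replicate 3 or without tyramine replicate 2, because Dnajb1 then lost its call. Over all tested genes, 1518 rose and 1609 fell, and without control replicate 1, 2 or 3 the numbers were 960, 934 and 1020 rising and 1035, 1043 and 1055 falling.

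**Figure D1:**
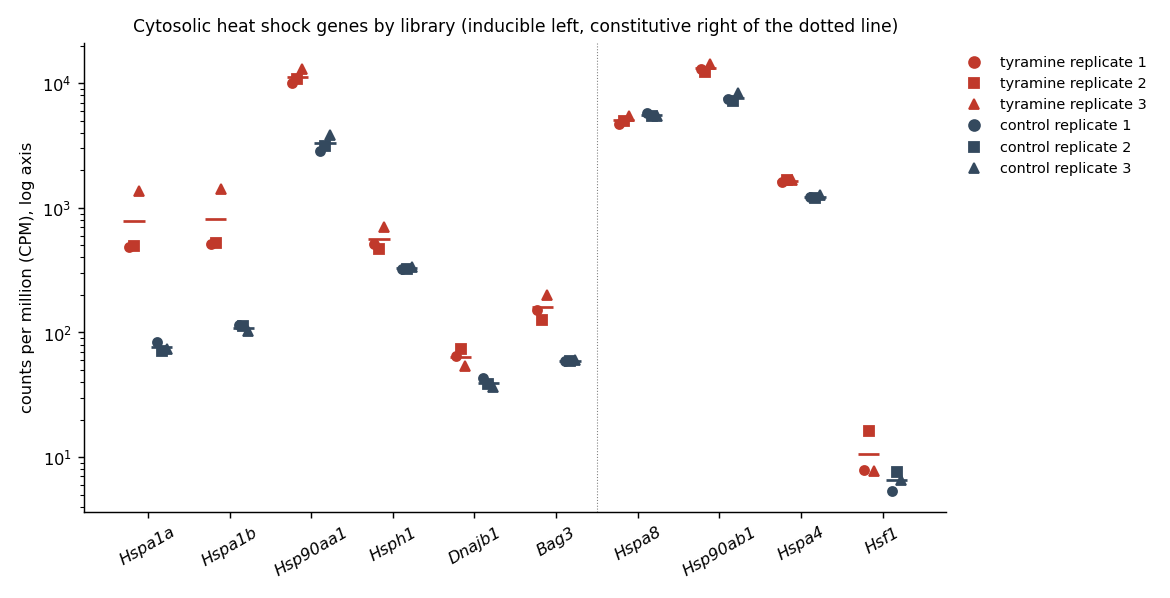
CPM of the 10 genes in each library on a log axis, tyramine left of control for each gene, with horizontal bars at the group means and symbols for replicates. Tyramine libraries lie above control libraries for every gene except Hspa8, and for Hspa1a and Hspa1b tyramine replicate 3 stands above the other tyramine libraries.

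**Figure D2:**
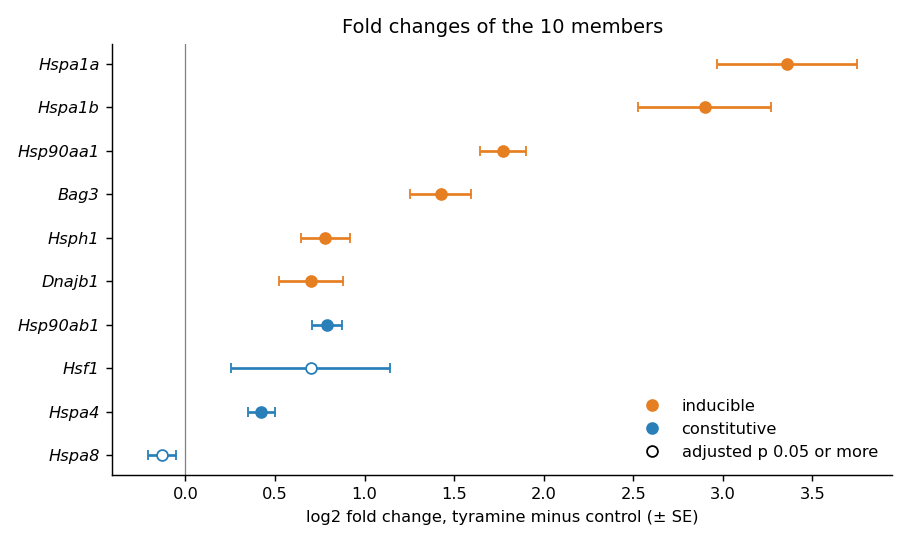
Fitted log2 fold change of each gene, tyramine minus control, with its SE from the edgeR fit, inducible genes above constitutive ones. Hspa1a, at 3.36, has the highest value and Hspa8, at -0.13, the lowest, and the open symbols are Hspa8 and Hsf1.

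Total counts were 29176428, 32489563 and 29898545 for tyramine replicates 1 to 3 and 29154975, 35035955 and 28316372 for control replicates 1 to 3. The origin of the replicates (mouse, culture or aliquot) is not in the labels, so the p-values cover the spread among these 6 libraries, and that spread may be technical. Replicates differed by more than counting noise in every pair, with a chi-square per degree of freedom of 51.1 to 95.0 within tyramine and 25.8 to 33.5 within control, and the 2 highest values were the pairs that include tyramine replicate 3. The summed CPM of 8 epithelial markers was 14274 to 15786 in tyramine libraries and 15779 to 17247 in control libraries. Of these 8 genes, 2 rose and 4 fell, where 12.5% of all tested genes rose and 13.3% fell. Markers of other cells were near 0. Their sums were 8.93 to 8.96 CPM in tyramine and 9.44 to 9.73 CPM in control libraries for 8 fibroblast genes, 5.41 to 9.57 CPM in tyramine and 4.94 to 8.17 CPM in control libraries for 7 immune genes, and 0.209 to 2.61 CPM in tyramine and 0.386 to 1.25 CPM in control libraries for 5 endothelial genes. In bulk RNA, a change in the share of cells expressing a gene and a change in RNA per cell cannot be told apart.

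Hspa1a and Hspa1b encode the stress-inducible HSP70 and are neighbours on the minus strand of chromosome 17 (GRCm38, 34969190 to 34972156 for Hspa1a and 34956436 to 34959238 for Hspa1b), each with a single exon. Their coding sequences differ at 11 of 1929 aligned positions, an identity of 99.4%, so the split of reads between them is uncertain. An annotated gene on the opposite strand, Gm20481, spans 2225 of the 2967 exon bases of Hspa1a, and since the strand setting of the counting is not given, reads from that gene cannot be told apart from those of Hspa1a. Hsph1 encodes HSP110, an exchange factor for HSP70 (chromosome 5, 149614287 to 149636376, minus strand). The upstream sequences of these 3 inducible genes are shown because each holds a match to the heat shock element core, the motif that HSF1 binds. Sequences are from RefSeq on GRCm38.p6 and give the 250 bases before a RefSeq start, at chr17:34972157-34972406 for Hspa1a, chr17:34959239-34959488 for Hspa1b and chr5:149636316-149636565 for Hsph1, all read on the minus strand. Capitals mark the match.
Hspa1a: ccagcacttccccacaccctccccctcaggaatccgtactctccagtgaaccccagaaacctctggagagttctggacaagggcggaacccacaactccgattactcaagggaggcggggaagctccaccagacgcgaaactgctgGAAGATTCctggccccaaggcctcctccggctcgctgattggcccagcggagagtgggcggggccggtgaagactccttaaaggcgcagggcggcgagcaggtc
Hspa1b: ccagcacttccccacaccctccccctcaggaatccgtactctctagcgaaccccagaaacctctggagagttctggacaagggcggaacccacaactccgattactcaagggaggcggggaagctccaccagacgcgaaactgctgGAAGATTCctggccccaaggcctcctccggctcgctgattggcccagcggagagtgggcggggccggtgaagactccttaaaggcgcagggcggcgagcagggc
Hsph1: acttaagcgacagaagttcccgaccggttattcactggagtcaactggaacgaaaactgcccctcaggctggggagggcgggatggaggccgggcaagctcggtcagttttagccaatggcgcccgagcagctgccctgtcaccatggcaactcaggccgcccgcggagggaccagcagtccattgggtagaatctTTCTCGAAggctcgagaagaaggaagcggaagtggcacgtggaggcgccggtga
The letters searched were GAANNTTC and TTCNNGAA, each of which reads the same on both strands. Hspa1a and Hspa1b hold GAAGATTC from 104 to 97 bases before the start, and Hsph1 holds TTCTCGAA from 54 to 47 bases before the RefSeq start shown. Before another RefSeq start of Hsph1, not shown, the same match lies 33 to 26 bases away. Both of these starts, and the match, lie inside the Hsph1 gene span given above. Of 32851 promoter windows of the same length, 12.8% hold either form, so the match is common. The longer form with 3 units, GAANNTTCNNGAA or on the other strand TTCNNGAANNTTC, is in 0.466% of windows and in none of the member windows. Windows were given for 6 of the 10 genes, and Dnajb1, Bag3 and Hspa4 had none of these letters in theirs. Only exact letters were searched, so an element with a changed base in a unit would go unmarked. This holds for those genes and for the sequences shown, so the search cannot say that a window lacks heat shock elements. A Dnajb1 window, chr8:83608298-83608547, lies inside the span of that gene and not before it. The Hspa1a and Hspa1b windows differ at 3 positions, C44T, T47C and T249G, counted from 1 at the 5′ end of the window with the base of Hspa1a first.

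Hspa1a and Hspa1b had the highest fold changes of the 10 genes. Hspa1a had 482, 496 and 1364 CPM in tyramine replicates 1 to 3, against 84.0, 71.3 and 73.1 CPM in control replicates 1 to 3. Hspa1b had 515, 522 and 1413 CPM in tyramine replicates 1 to 3, against 114, 112 and 103 CPM in the control libraries. For both genes tyramine replicates 1 and 2 were nearly equal, replicate 3 was far above them, and the lowest tyramine library was well above the highest control. Hspa1a rose 10.3-fold (log2 fold change 3.36 with SE 0.39; edgeR adjusted p = 0.00035) and Hspa1b rose 7.46-fold (2.90 with SE 0.37; edgeR adjusted p = 0.00061). Without tyramine replicate 3 the folds were 6.43 for Hspa1a (edgeR adjusted p = 7.1e-08) and 4.74 for Hspa1b (edgeR adjusted p = 9.8e-08). With both rows summed before the fit, which removes the question of how reads were split, the rise was 8.60-fold (log2 fold change 3.11 with SE 0.38; edgeR adjusted p = 0.00044). How reads that fit both copies were counted is not stated, so the level of the sum stays uncertain. Hspa1a made up 46.9%, 47.3% and 47.7% of the pair per kilobase in tyramine replicates 1 to 3 and 41.1%, 37.5% and 40.2% in control replicates 1 to 3. This share was not among the measures planned. The groups did not overlap in it, with an exact two-sided permutation p = 0.1, the smallest that 3 against 3 libraries allow.

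Hspa8 encodes HSC70, the constitutive HSP70 (chromosome 9, 40800984 to 40810087, plus strand), and its introns hold small nucleolar RNA genes. Hspa8 had 4685, 5033 and 5517 CPM in tyramine replicates 1 to 3, against 5770, 5440 and 5468 CPM in the control libraries. In CPM, tyramine replicate 3 lay inside the control range and the other tyramine libraries below it. As percent of library totals alone, Hspa8 was 0.455, 0.493 and 0.530 in tyramine replicates 1 to 3. It was 0.602, 0.567 and 0.551 in control replicates 1 to 3, so every tyramine library lay below the controls on that scale. The log2 fold change was -0.13 (SE 0.08; edgeR adjusted p = 0.27), and Hspa8 was not called under any of 13 alternative settings, where its adjusted p ran from 0.064 to 0.57. Per kilobase of exon, Hspa1a and Hspa1b together made up 15.03%, 14.4% and 29.5% of the summed Hspa1a, Hspa1b and Hspa8 signal in tyramine replicates 1 to 3, against 2.78%, 2.74% and 2.61% in control replicates 1 to 3. The inducible share was 19.6% ± 8.53 with tyramine and 2.71% ± 0.0876 in control (SD, n = 3 each; exact two-sided permutation p = 0.1, the smallest possible). The size of this share depends on how reads that fit both Hspa1a and Hspa1b were counted, which is not stated. The 3 genes summed gave 5682, 6052 and 8293 CPM in tyramine replicates 1 to 3 and 5968, 5623 and 5644 CPM in control replicates 1 to 3. In that sum tyramine replicate 1 lay inside the control range, replicate 2 just above it and replicate 3 well above it. As percent of library totals alone, tyramine replicate 1 (0.552) lay below the control range of 0.568 to 0.622. Replicate 2 (0.593) lay inside that range and replicate 3 (0.797) above it.

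Hsp90aa1 and Hsp90ab1, the inducible and the constitutive gene of cytosolic HSP90, both rose. Hsp90aa1 (chromosome 12, 110690605 to 110702728, minus strand) had 10058, 10782 and 12999 CPM in tyramine replicates 1 to 3, against 2890, 3143 and 3879 CPM in the control libraries. The lowest tyramine library exceeded the highest control library, and replicate 3 was the highest library of each group. The rise was 3.41-fold (log2 fold change 1.77 with SE 0.13; edgeR adjusted p = 9.5e-06). Hsp90ab1 (chromosome 17, 45567775 to 45573271, minus strand) had 13163, 12269 and 14301 CPM in tyramine replicates 1 to 3, against 7437, 7228 and 8299 CPM in control replicates 1 to 3. Again the groups were apart and replicate 3 was the highest of each, and the rise was 1.73-fold (log2 fold change 0.79 with SE 0.08; edgeR adjusted p = 0.00011). Counts of both genes together made up 2.26%, 2.26% and 2.63% of all counts in tyramine replicates 1 to 3 and 1.08%, 1.08% and 1.23% in control replicates 1 to 3. The Hsp90aa1 share of the pair per kilobase was 36.3%, 39.6% and 40.4% in tyramine libraries and 22.5%, 24.5% and 25.8% in control libraries. Its means were 38.8% ± 2.17 with tyramine and 24.3% ± 1.70 in control (SD, n = 3 each; exact two-sided permutation p = 0.1, the smallest possible), a difference of 14.5 percentage points that was 13.6 to 15.7 when each library was left out.

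**Figure D3:**
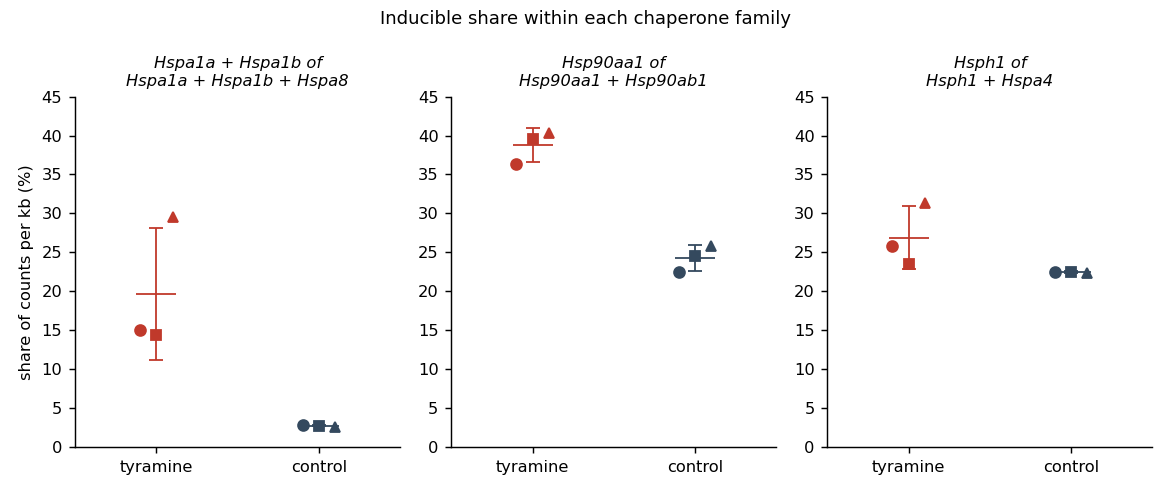
Share of the inducible gene or genes within each family, in percent of counts per kilobase of exon, per library, with the mean and SD as bars, tyramine left of control. The tyramine libraries lie above the control libraries in all 3 families, by 16.9, 14.5 and 4.44 percentage points in the mean.

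The HSP110 exchange factors, Hsph1 and the constitutive Hspa4, both rose. Hsph1 had 513, 472 and 698 CPM in tyramine replicates 1 to 3, against 322, 322 and 335 CPM in the control libraries. All tyramine libraries were above the controls, which lay close together, and the rise was 1.72-fold (log2 fold change 0.78 with SE 0.14; edgeR adjusted p = 0.0026). Hspa4 (chromosome 11, 53259814 to 53300457, minus strand) had 1609, 1682 and 1673 CPM in tyramine libraries, against 1215, 1210 and 1274 CPM in control libraries. Both groups of Hspa4 were tight, and the rise of 1.34-fold (log2 fold change 0.42 with SE 0.07; edgeR adjusted p = 0.0023) was the smallest among the 8 called. The Hsph1 share of this pair, a measure added after the values were seen, was 25.9%, 23.5% and 31.3% per kilobase in tyramine replicates 1 to 3 and 22.5%, 22.5% and 22.4% in control replicates 1 to 3 (exact two-sided permutation p = 0.1, the smallest possible). The difference in means was 4.44 percentage points, and 2.22 without tyramine replicate 3.

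Bag3 and Dnajb1, the co-chaperone genes, both rose. Bag3, whose protein links HSP70 to selective autophagy (chromosome 7, 128523616 to 128546981, plus strand), had 151, 125 and 199.6 CPM in tyramine replicates 1 to 3, against 58.7, 58.8 and 59.7 CPM in the control libraries. The control libraries were almost equal and every tyramine library was above them. The rise was 2.69-fold (log2 fold change 1.43 with SE 0.17; edgeR adjusted p = 0.00025). Dnajb1, the main inducible J-domain partner of HSP70 (chromosome 8, 83608193 to 83612653, plus strand), had 65.2, 73.5 and 53.4 CPM in tyramine replicates 1 to 3, against 43.3, 38.8 and 36.2 CPM in control replicates 1 to 3. Its groups were apart, but replicate 3 was the lowest tyramine library here and not the highest. The rise was 1.62-fold (log2 fold change 0.70 with SE 0.18; edgeR adjusted p = 0.017). Dnajb1 was the one called gene of the 10 that lost its call, with edgeR adjusted p = 0.076 without control replicate 2, 0.083 without control replicate 3 and 0.053 without tyramine replicate 2.

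Hsf1, the gene of the factor itself (chromosome 15, 76477422 to 76501913, plus strand), was the least abundant of the 10. It had 222, 516 and 222 counts in tyramine replicates 1 to 3, or 7.83, 16.2 and 7.72 CPM, against 163, 279 and 187 counts, or 5.36, 7.65 and 6.56 CPM, in the control libraries. In CPM the lowest tyramine value was just above the highest control value, and tyramine replicate 2 was far above the others. As percent of library totals alone the groups overlapped. The values were 0.00076, 0.00159 and 0.00074 in tyramine replicates 1 to 3 and 0.00056, 0.00080 and 0.00066 in control replicates 1 to 3. The log2 fold change of 0.70 had an SE of 0.44 and did not pass the test (edgeR adjusted p = 0.30), and it was 0.26 without tyramine replicate 2. Hsf2, a second heat shock factor gene, averaged 20.6 ± 3.02 CPM with tyramine and 14.6 ± 2.89 CPM in control (SD, n = 3 each) and also did not pass (edgeR adjusted p = 0.23).

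Scaled to exon length, the order of the genes changed with tyramine. In tyramine libraries the order of mean CPM per kilobase was Hsp90ab1 (5256), Hsp90aa1 (3336), Hspa8 (2121), Hspa4 (358), Hspa1b (291), Hspa1a (263), Hsph1 (133), Bag3 (62.0), Dnajb1 (20.0) and Hsf1 (4.69). In control libraries the order was Hsp90ab1 (3038), Hspa8 (2322), Hsp90aa1 (977), Hspa4 (267), Hsph1 (77.3), Hspa1b (39.1), Hspa1a (25.7), Bag3 (23.1), Dnajb1 (12.3) and Hsf1 (2.89). Every neighbouring pair in the control order was apart in all libraries. In the tyramine order, Hspa4 with Hspa1b, Hspa1b with Hspa1a and Hspa1a with Hsph1 overlapped, and the other neighbours did not. The places of Hspa1a and Hspa1b depend on how reads that fit both copies were counted, which is not stated. Hsp90aa1 thus lay above Hspa8 in every tyramine library and below it in every control library on this scale.

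**Figure D4:**
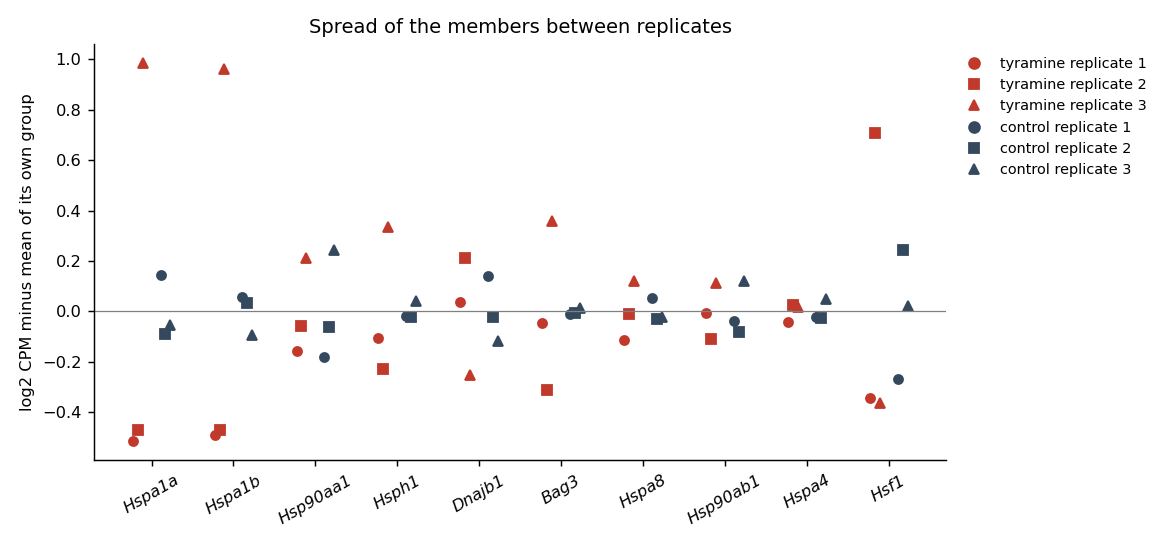
Log2 CPM of each library minus the mean of its own group, for the 10 genes, tyramine left of control for each gene. Tyramine replicate 3 lies 0.99 and 0.96 above its group mean for Hspa1a and Hspa1b, and 0.25 below it for Dnajb1.

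The tyramine libraries differed among themselves in the level of the inducible genes. Replicate 3 was the highest tyramine library for 5 of the 6 inducible genes, Dnajb1 being the exception, and for 2 of the 4 constitutive genes, Hspa8 and Hsp90ab1. Above its group mean it lay by 0.99 (log2) for Hspa1a, 0.96 for Hspa1b, 0.36 for Bag3, 0.34 for Hsph1 and 0.21 for Hsp90aa1. Control replicate 3 was also the highest control library for 5 of the 10 genes, Hsp90aa1, Hsp90ab1, Hsph1, Bag3 and Hspa4. The shares of all tested genes highest in replicate 3 were not worked out. These counts therefore cannot show that the pattern is particular to the heat shock genes. The scatter over all tested genes, as the SD of log2 deviations from the group mean, was 0.78, 0.82 and 0.92 in tyramine replicates 1 to 3 and 0.48, 0.44 and 0.46 in control replicates 1 to 3. What set tyramine replicate 3 apart was not tested.

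Genes outside the 10 with the pattern most like the summed Hspa1a and Hspa1b level were Ahnak, Atp13a3, Gse1, Prrc2c and Adipor1, by Pearson correlation of log2 CPM over the 6 libraries (0.999, 0.998, 0.998, 0.997 and 0.997). All 5 rose, by 1.70-fold for Adipor1 to 2.45-fold for Gse1. Ahnak, a very large scaffold protein of the cell membrane, had 692, 719 and 1029 CPM in tyramine replicates 1 to 3, against 348, 347 and 353 CPM in the control libraries. Rising with tyramine and peaking in tyramine replicate 3 follow from picking genes by this correlation, and are not separate findings. Among the 10 genes, the same correlation was 0.990 for Bag3, 0.989 for Hsph1, 0.966 for Hsp90ab1, 0.965 for Hsp90aa1, 0.948 for Hspa4, 0.769 for Dnajb1, 0.478 for Hsf1 and -0.43 for Hspa8. These values share the same 6 libraries and the same group difference, and with so few points they are a description only.

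Other chaperone genes moved both ways. Of 98 other chaperone genes in 8 lists, 84 were tested, 16 rose, 13 fell and 55 did not pass, shares of 19.0% and 15.5% of those tested beside 12.5% and 13.3% of all tested genes. The median log2 fold change was 0.09. The number rising was 7 without control replicate 1, 9 without control replicate 2 and 9 without control replicate 3, and 9 with libraries scaled by their totals alone.

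Among 17 tested J-domain genes of the cytosol and nucleus, 4 rose (23.5%), 1 fell (5.88%) and 12 did not pass. Of all tested genes, 12.5% rose and 13.3% fell. The median log2 fold change of the list was 0.35. Dnaja2, a housekeeping partner of HSP70, rose 1.53-fold to 763 ± 31.0 CPM with tyramine, against 498 ± 14.2 CPM in control (SD, n = 3 each; edgeR adjusted p = 0.00049). Dnajc5, the synaptic and secretory cysteine string protein, rose 1.76-fold (edgeR adjusted p = 0.0057). Dnajc9, a histone chaperone, fell to 23.3 ± 6.92 CPM, against 78.4 ± 11.6 CPM in control (SD, n = 3 each), a log2 fold change of -1.75 (SE 0.25; edgeR adjusted p = 0.0007). The other rising genes were Dnajb6 and Dnaja1, singled out after their values were seen, at log2 fold changes of 0.50 and 0.35. The rising count was 2 without control replicate 1, and the falling count was 2 without tyramine replicate 3.

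Among HSP90 co-chaperones, 3 of 18 rose (16.7%), 2 fell (11.1%) and 13 did not pass. These shares lay near the 12.5% rising and 13.3% falling of all tested genes. The median log2 fold change was 0.15, beside the rises of Hsp90aa1 and Hsp90ab1. Unc45a, a client-specific chaperone of myosins, rose 1.70-fold (edgeR adjusted p = 0.0050). Fkbp4 and Fkbp5, immunophilins that serve steroid receptor complexes, fell. Fkbp4 averaged 443 ± 54.7 CPM with tyramine and 708 ± 58.9 CPM in control (SD, n = 3 each; log2 fold change -0.68 with SE 0.11; edgeR adjusted p = 0.0017). Fkbp5 had a log2 fold change of -0.39 (SE 0.12; edgeR adjusted p = 0.030) and lost its call when control replicate 1 or 2 or tyramine replicate 1 or 2 was left out. Tomm34 also rose, at a log2 fold change of 0.92, and was singled out after its value was seen. Known heat-responsive co-chaperone genes among those that did not pass, also picked out afterwards, were Ahsa1, which activates the HSP90 ATPase, at 0.30 (edgeR adjusted p = 0.057), Chordc1 at 0.34 (edgeR adjusted p = 0.056) and Stip1, which joins HSP70 to HSP90, at 0.13 (edgeR adjusted p = 0.53). In this list 6 genes rose by DESeq2 and 5 by limma-voom, against 3 in the edgeR fit. The rising count was 1 without any single control library and 5 without tyramine replicate 3, and the falling count was 1 without control replicate 1, control replicate 2, tyramine replicate 1 or tyramine replicate 2.

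Of 8 HSP70 exchange factors and partners, 2 rose (25%), 1 fell (12.5%) and 5 did not pass. Of all tested genes, 12.5% rose and 13.3% fell. St13, the HSP70-interacting protein HIP, rose to 1053 ± 59.9 CPM with tyramine, against 727 ± 22.2 CPM in control (SD, n = 3 each; log2 fold change 0.53 with SE 0.08; edgeR adjusted p = 0.0011). Stub1, the ubiquitin ligase CHIP, fell (log2 fold change -0.50 with SE 0.15; edgeR adjusted p = 0.029), and Bag6 rose 1.32-fold (edgeR adjusted p = 0.049). Stub1 lost its call without any single control library or without tyramine replicate 2, and Bag6 without any single control library or without tyramine replicate 1 or 2. Bag6 also lost it with DESeq2-type size factors, with library totals alone, with no filter on low counts and with a filter at a mean of 5 CPM. The rising count of this list was 1 and its falling count 0 without any single control library or without tyramine replicate 2, and 2 fell without tyramine replicate 1. Of 3 tested HSP70 and HSP110 relatives, Hspa4l rose 1.33-fold (edgeR adjusted p = 0.048), a call lost without any 1 library but tyramine replicate 3, where 1 relative also fell, and lost with library totals alone or no filter on low counts. Of 9 small heat shock protein genes, Hspb6 was the one with counts in enough libraries to be tested, at 0.643 ± 0.882 CPM with tyramine and 0.571 ± 0.072 CPM in control (SD, n = 3 each; edgeR adjusted p = 0.95). Hspb1, the gene of HSP27 and a classical HSF1 target, was singled out after its counts were seen, at 68, 0 and 275 in tyramine replicates 1 to 3 and 0, 2 and 0 in control replicates 1 to 3. In tyramine replicate 3 this came to 9.57 CPM. The filter on low counts left Hspb1 out, and where it was admitted its call depended on the setting, with an edgeR adjusted p of 0.025 with no filter, 0.0058 without tyramine replicate 2, the tyramine library at 0, and 0.093 to 0.14 without a single control library. The other 7 genes had at most 24 counts in any library.

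Beside 12.5% of all tested genes rising and 13.3% falling, 0 of 9 tested heat shock factors and regulators fell in the edgeR fit. The number falling was also 0 at an unadjusted p under 0.05, by DESeq2 and by limma-voom. In the edgeR fit 4 of the 9 genes rose (44.4%). They were Vcp, a segregase that extracts ubiquitinated proteins and binds HDAC6 (1.77-fold; edgeR adjusted p = 0.00072), Sirt1, a deacetylase that acts on HSF1 (4.58-fold; edgeR adjusted p = 0.0013), Hdac6, which senses ubiquitinated protein (3.01-fold; edgeR adjusted p = 0.012), and Ep300, an acetyltransferase, singled out after its value was seen (1.47-fold; edgeR adjusted p = 0.024). Sirt1 averaged 39.4 ± 16.7 CPM with tyramine and 8.60 ± 2.28 CPM in control (SD, n = 3 each). The rising count was 2 without control replicate 3.

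Among chaperones of other compartments more genes fell than rose. Of 16 genes of the endoplasmic reticulum, 1 rose (6.25%), 6 fell (37.5%) and 9 did not pass, with a median log2 fold change of -0.18. Of all tested genes, 12.5% rose and 13.3% fell. Hsp90b1, the HSP90 of that compartment, fell to 1358 ± 44.3 CPM with tyramine, against 2235 ± 233 CPM in control (SD, n = 3 each; log2 fold change -0.72 with SE 0.09; edgeR adjusted p = 0.00035). Pdia6, a disulfide isomerase, and Calr, the lectin chaperone calreticulin, also fell, at log2 fold changes of -0.62 (edgeR adjusted p = 0.0015) and -0.50 (edgeR adjusted p = 0.0035). Hspa5, the HSP70 of the endoplasmic reticulum, singled out afterwards, had 814, 794 and 1207 CPM in tyramine replicates 1 to 3 and 817, 792 and 930 CPM in control replicates 1 to 3, and did not pass (edgeR adjusted p = 0.54). Dnajb9, a J-domain protein of the same compartment, was the riser, singled out after its value was seen, with 51.7, 40.3 and 94.8 CPM in tyramine replicates 1 to 3 and 38.8, 29.4 and 31.8 CPM in control replicates 1 to 3 (edgeR adjusted p = 0.049). Its call was lost without any 1 library but tyramine replicate 2, and with DESeq2-type size factors, library totals alone or limma-voom.

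Of 12 mitochondrial genes, 1 rose (8.33%), 3 fell (25%) and 8 did not pass, with a median log2 fold change of -0.14. Hspd1, the mitochondrial chaperonin HSP60, fell to 693 ± 77.3 CPM with tyramine, against 1058 ± 30.1 CPM in control (SD, n = 3 each; log2 fold change -0.61 with SE 0.10; edgeR adjusted p = 0.0015). Trap1, the mitochondrial HSP90, and Clpb, a disaggregase, also fell (log2 fold changes -0.51 and -0.81; edgeR adjusted p = 0.0089 and 0.017), and Clpx, a protease partner singled out after its value was seen, rose (0.49; edgeR adjusted p = 0.021). Leaving out control replicate 1 gave 2 falling genes, and leaving out control replicate 2 gave 1. The rising count was 0 without any single control library, without tyramine replicate 2 or with library totals alone.

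**Figure D5:**
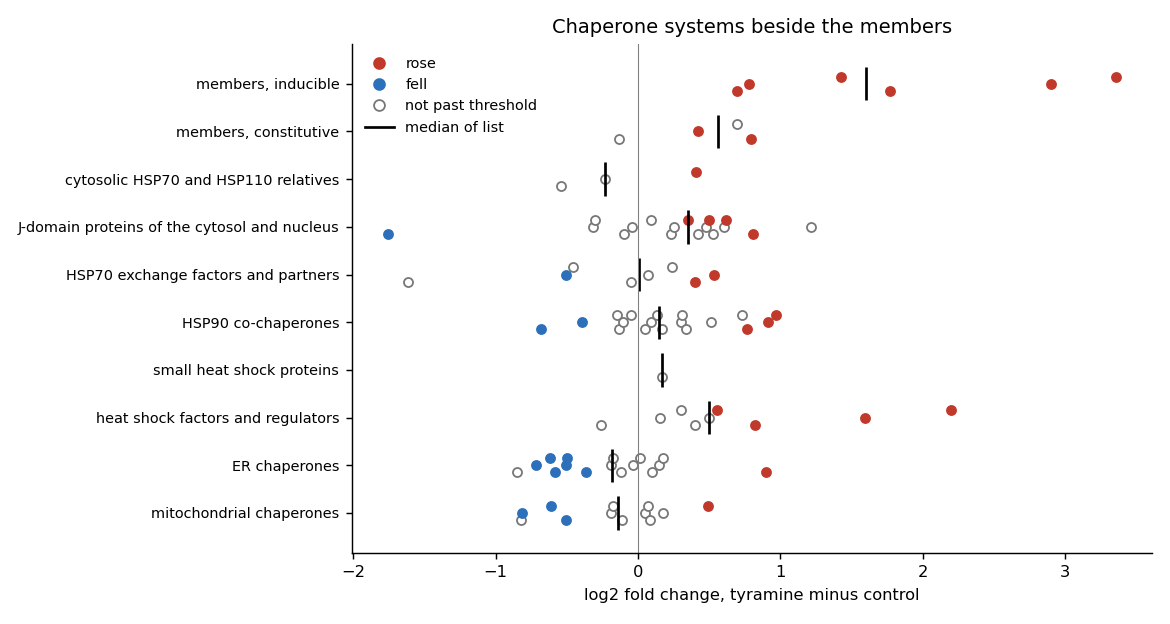
Log2 fold change, tyramine minus control, of every tested gene in the 2 member classes and the 8 other chaperone lists, 1 point per gene, coloured by its call, with a black bar at the list median. The inducible members have a median of 1.60, and the endoplasmic reticulum and mitochondrial lists have medians of -0.18 and -0.14.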

How the data were processed

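The authors deposited unnormalized counts, 1 row per gene symbol and 1 column per library. Alignment used STAR 2.5.3a with mm10, per the submitters' processing notes. Not stated there are the counting program, its annotation and strand setting, the handling of reads that map to several places, and any use of the molecular identifiers. Low genes were removed from these counts by filterByExpr (at least 10 counts, total of at least 15), TMM factors were 0.962 to 1.04, and the robust quasi-likelihood F-test of edgeR 4.0.16 (in R 4.3.3, with group as the only term) was run over all 12139 tested genes, with a Benjamini-Hochberg adjusted p under 0.05 as the threshold. SEs were obtained as log2 fold change over the root of F. Lengths and positions are merged protein-coding exons of GENCODE M21 (GRCm38). The table holds 26 names that read as dates, which stayed in the fit. The scripts were tested on simulated counts. DESeq2 1.42.0 and limma-voom (limma 3.58.1) were alternatives. The members and the gene lists were chosen with earlier results of these data known. Named outside the 10 members were up to 3 called genes per list with the smallest p, or the gene with the smallest p where none was called, and the 5 genes most like Hspa1a plus Hspa1b; others are marked as singled out after their values were seen. Some list genes are not reported here by name.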

Additional observations from a re-analysis of the deposited data

How the results depend on the processing

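Of the 8 members called, 7 kept their call and direction under every alternative run (scaling by DESeq2-type size factors or by totals, 2 other filters, DESeq2, limma-voom, a replicate block and each library left out), Dnajb1 lost its call without 3 of the libraries, and Hspa8 and Hsf1 were called in none. No member reversed. With each library left out, the members rising numbered 7 to 8, the inducible members rising 5 to 6, all genes rising 934 to 1510 and all genes falling 1035 to 1797. Other chaperone genes rising numbered 7 to 16 with each library left out, 9 with library totals alone and 10 with the replicate block, against 16, and those falling 9 to 15, against 13. Replicate numbers are shared by the groups, but nothing says that they pair the libraries, and same-numbered libraries did not deviate together (correlations -0.019, -0.010 and 0.011 over genes); tyramine replicates 1 and 2 correlated best with another number. With the replicate block 8 members rose, 1204 genes rose and 1390 fell; Hspa4l, Bag6, Dnajb9 and Clpx were not called. The cause of these changes was not tested; leaving out a library also leaves fewer samples. With 3 libraries a group, a share within a family cannot reach an exact p under 0.1, and Hsf1, at 163 to 516 counts, was the member with the fewest counts behind it.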
